A study of Mus musculus with 4 samples.

Results

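Imprinted genes were followed in EpH4 cells, a mouse mammary epithelial line, by the names of 32 genes for which expression from 1 parental copy has been described in the mouse. The members were the rows of the deposited raw count table that carry 1 of these names. Of the 32 names, 26 had a row among the 25413 rows of the table. The 6 others, H19, Meg3, Rian, Mirg, Kcnq1ot1 and Airn, are all long noncoding RNAs, and their expression was not analysed here. The 4 libraries came from wildtype cells grown on a flat surface, in 2 groups: untreated cells (Control, 2 libraries) and cells given PM2.5, fine airborne particulate matter (PM2.5, 2 libraries). The labels give no dose and no exposure time, and 1 batch value covers all libraries. Whether the libraries of a group came from separate cultures is not given either. A p-value here thus sets the group difference only against the spread within these samples, and that spread may be technical.

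Imprinting marks a gene in the egg or the sperm, mostly by DNA methylation at a control region, so that later 1 parental copy is read and the other is silent. Imprinted genes lie in clusters in which protein-coding genes, noncoding RNAs and a shared control region sit side by side, and many act on fetal growth, the placenta, brain function or metabolism. Several, Ube3a, Gnas and Grb10 among them, are read from 1 copy in some tissues only. The deposited counts do not separate the parental copies, so every level below is the sum over both.

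The libraries held 18548478 to 26206329 counts each, and a count of 3, the floor used here, stood for 0.116 to 0.158 CPM (counts scaled to library size, here with TMM factors, the trimmed mean of M values). The labelled epithelial cell type was borne out by few of its markers. Of 14 luminal epithelial markers, 13 had a mean over the 4 libraries below 1 CPM, and Epcam, Krt18, Krt19, Cldn4 and Esrp1 were at 0 in all libraries. Gata3, the other, had a mean of 96.1 CPM in the controls and 93 CPM in PM2.5. Of 7 basal and myoepithelial markers, 5 had a mean below 1 CPM, while Trp63 stood at 2.1 to 2.32 CPM and the keratin Krt14 fell from 53.1 and 51 to 20.8 and 18.6 CPM (log2 fold change -1.40, edgeR adjusted p = 1.116e-06). Of 12 mesenchymal markers, 11 were tested, and their summed level was 9036 and 9732 CPM in the controls against 6703 and 7353 CPM in PM2.5. Of these, 6 fell, Vim and Fn1 among them, and 3 rose, Dcn, Col3a1 and Col1a1. Immune cell markers summed to 9.05 and 10.1 CPM in the controls and 15.8 and 17.7 CPM in PM2.5, with Cd3e and Itgam at 0. Endothelial markers summed to at most 0.421 CPM in any library. Of 4 adipocyte markers, only Pparg was tested, and it fell from 1.37 and 1.63 to 0.339 and 0.264 CPM (log2 fold change -2.295, edgeR adjusted p = 0.001558). The Krt14, mesenchymal, immune and Pparg levels moved with the groups compared below, and their part in the results was not tested.

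Most imprinted genes were silent or close to silent in these cells. Of the 26 with a row, 13 had 0 counts in all 4 libraries, 7 had counts but too few to test, and 6 were tested. The total gene reads, a further deposited count that is never below the raw count, were at most 2 in any library for the 13 members at 0. The share at 0 was 50% of the imprinted genes and 29.3% of all rows, and the share tested was 23.1% against 49.1%. These shares describe the list and were not tested. In the plot of levels by library, the 3 most abundant members, Gnas, Impact and Ube3a, kept their order in every library.

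**Figure D1:**
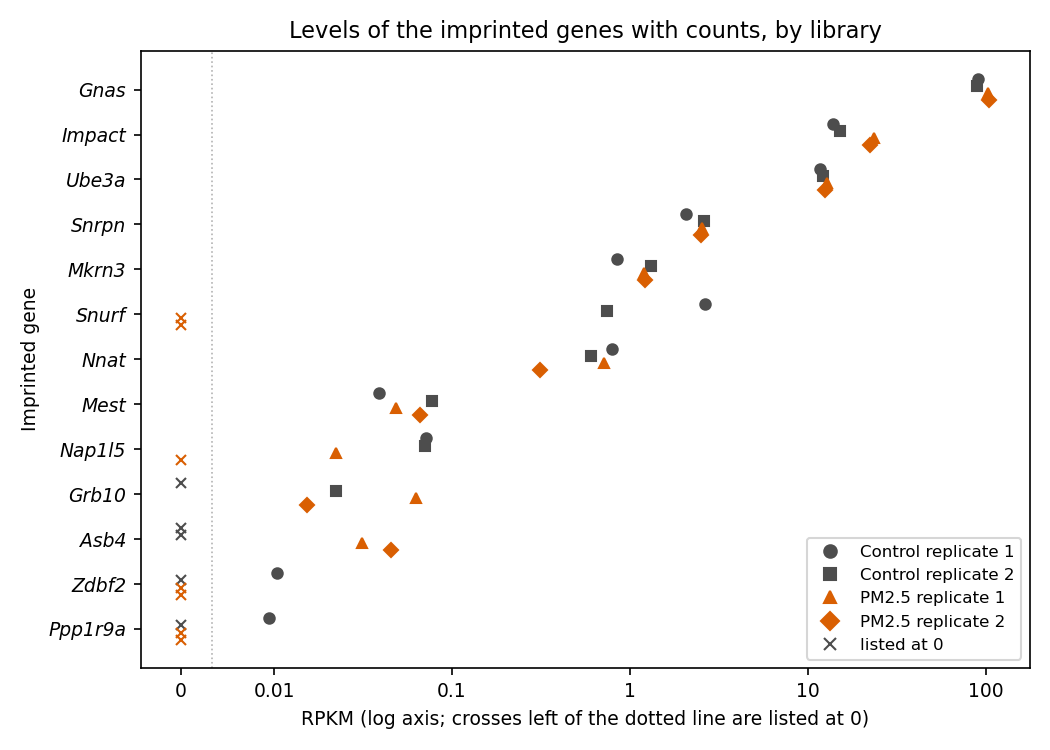
Deposited RPKM (reads scaled to gene length and library size, log axis) of each imprinted gene with counts, 1 point per library, with values of 0 drawn as crosses left of the dotted line. Gnas stands at 89.3 to 105 RPKM, Impact and Ube3a between 11.7 and 23.4, Snrpn between 2.06 and 2.6, and the 9 others at or below 2.63.

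Per length, Gnas was the most abundant member, at 90.3 and 89.3 RPKM in the controls and 103 and 105 RPKM in PM2.5. Impact came next, at 13.9 and 15.1 RPKM in the controls and 23.4 and 22.3 RPKM in PM2.5. Ube3a followed closely, with 11.7 and 12.2 RPKM in the controls and 12.8 and 12.4 RPKM in PM2.5. In both groups every Impact value was above every Ube3a value, by a wider margin in PM2.5. The Gnas level exceeded that of 98.3% of all rows, the Impact level that of 87.6% and the Ube3a level that of 81.8%. Gnas alone made up 81.1% to 82.6% of all counts on imprinted genes, which in turn were 0.137% and 0.139% of the library in the controls and 0.165% and 0.166% in PM2.5.

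Exposure was followed by a rise of 2 imprinted genes, Impact and Gnas, and a fall of none that could be tested. Of the 6 tested members, 2 were higher in PM2.5 and 4 did not pass the test (edgeR quasi-likelihood test, Benjamini-Hochberg adjustment over all genes, threshold 0.05). Over all 12478 genes tested, 19.2% were higher, 20.4% were lower and 39.6% were called in either direction, so 2 calls in 6 lie near that background. At an unadjusted p below 0.05, the number of members lower was also 0 with edgeR. The median log2 fold change was 0.10 over the 6 members and 0.01 over all tested genes, and the median size without sign was 0.15 against 0.21. Of the 2 members that rose, Impact is read from the paternal copy, and Gnas from the maternal copy in a few tissues.

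**Figure D2:**
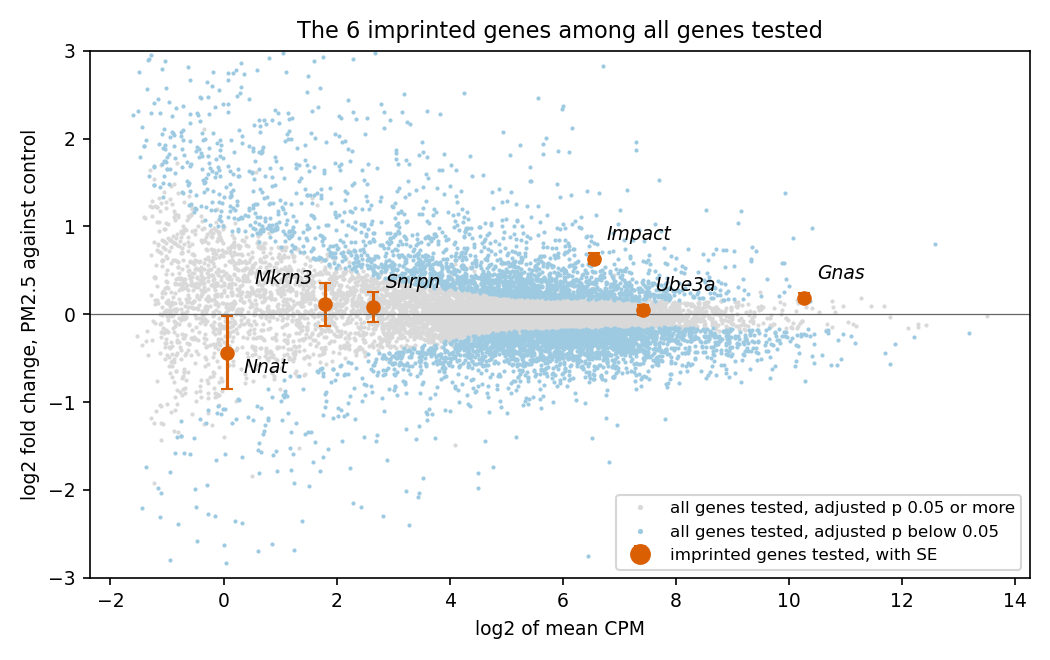
Log2 fold change of PM2.5 over Control against mean level (log2 of mean CPM) for all 12478 tested genes (blue where called, grey where not), with the 6 tested imprinted genes in orange with their SE, and 83 genes beyond an absolute log2 fold change of 3 not drawn. Impact at 0.63 and Gnas at 0.19 are the called members, and Nnat at -0.44 is the lowest point among the members.

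Impact, which encodes an inhibitor of the stress kinase GCN2 and so bears on protein synthesis when amino acids are short, rose by more than any other tested member. The gene (ENSMUSG00000024423, chromosome 18, 13088909 to 13126007, plus strand, GRCm39) had 1338 and 1963 counts in the controls and 2410 and 2101 in PM2.5. On the CPM scale these were 70.4 and 76.1 against 117 and 111. Both PM2.5 libraries lay above both controls with no overlap, as did 1 group above the other for 71% of all tested genes. The means were 73.3 ± 4.08 and 114 ± 4.31 CPM (SD, n = 2 each), and the log2 fold change was 0.63 (SE 0.066, 95% interval 0.49 to 0.78, edgeR adjusted p = 5.421e-05), a 1.55-fold rise. The nearest tested gene, Osbpl1a, which lies 14 kb away on the other strand, stood at 24.8 CPM in the controls and 25 CPM in PM2.5, with a log2 fold change of 0.01 (edgeR adjusted p = 0.9481). The 100 tested genes around Impact, 50 on each side, had a median log2 fold change of -0.18, and relative to them the change of Impact was 0.81.

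The deposited files do not define how total gene reads differ from the raw count. For Impact the raw count was 59.2% and 59.3% of the total gene reads in the controls (exact Clopper-Pearson 95% intervals 57.1 to 61.2 and 57.6 to 61%). In PM2.5 it was 67.4% and 67.9% (65.8 to 68.9 and 66.2 to 69.5%), above both controls and outside their intervals, which cover counting error only. The reads left outside the raw count came to 922 and 1349 in the controls and 1167 and 995 in PM2.5. Scaled to library size they were 48.5 and 52.3 against 56.6 and 52.4 CPM, so on this scale these reads differed less between the groups than the counted ones. The mean share moved by 8.38 percentage points, against a median of -0.82 points over the 4970 genes with at least 1000 total gene reads in every library. Among those genes, 22, Impact included, or 0.443%, moved by at least as much in either direction. The median share was 91.2%, and only 4.37% of the genes had a lower share than Impact. Most thus had little room for a rise of this size, so the 0.443% does not show how unusual the rise of Impact was. On total gene reads the log2 fold change of Impact was 0.40 (edgeR adjusted p = 0.001053). The share of Gnas differed by -0.04 points and that of Ube3a by 0.23 points. Their control shares were already 93.3% and 92.6% for Gnas and 97.4% in both libraries for Ube3a. Neither could have risen by 8.38 points, so they are no contrast to Impact.

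**Figure D3:**
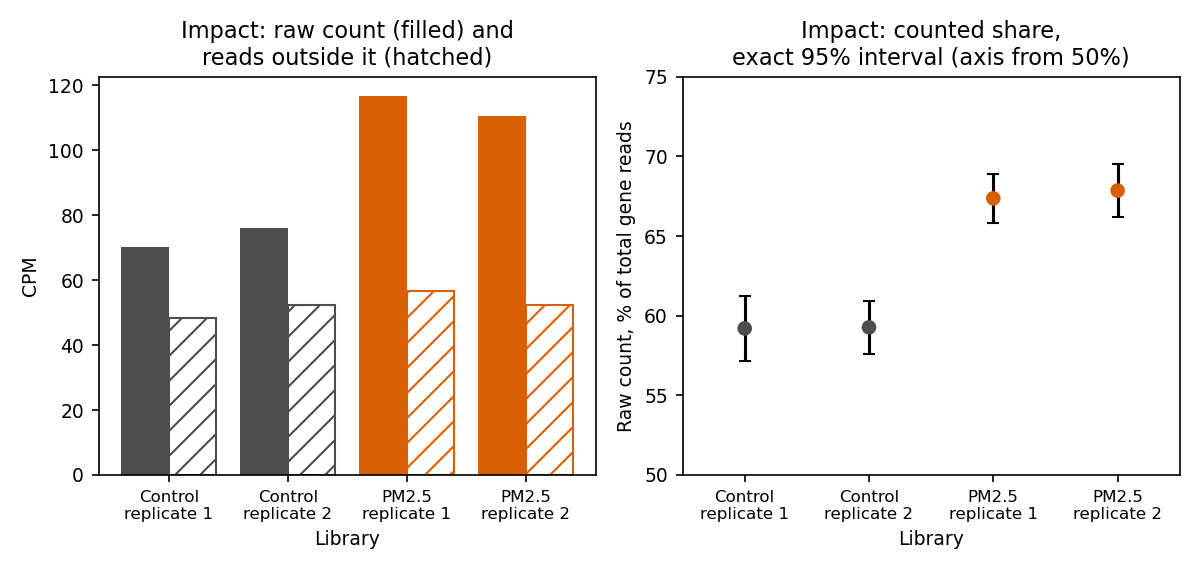
Reads of Impact in each library, scaled to library size (CPM), split into those in the raw count and the remainder of the total gene reads, and the raw count as a percent of total gene reads with exact 95% intervals. The raw count rises from 70.4 and 76.1 to 117 and 111 CPM while the remainder stays between 48.5 and 56.6 CPM.

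Gnas, which encodes the stimulatory G protein alpha subunit that couples hormone receptors to adenylyl cyclase, rose slightly. The gene (ENSMUSG00000027523, chromosome 2, 174126113 to 174188537, plus strand) also yields imprinted transcripts from other promoters, which a count per gene does not separate. It had 22147 and 29658 counts in the controls and 27101 and 25157 in PM2.5, or 1165 and 1150 against 1314 and 1326 CPM. The PM2.5 libraries lay above the controls, and the spread within each group was small, 1157 ± 10.2 against 1320 ± 8.55 CPM (SD, n = 2 each). The log2 fold change was 0.19 (SE 0.05, 95% interval 0.07 to 0.31, edgeR adjusted p = 0.01816), a 1.14-fold rise. The call ended without PM2.5 replicate 1 (0.19, adjusted p = 0.1195), without PM2.5 replicate 2 (0.18, 0.1564) and on total gene reads (0.15, 0.05545). The 100 tested genes around Gnas had a median log2 fold change of 0.15, and relative to them the change was 0.04 with an edgeR adjusted p of 0.589.

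**Figure D4:**
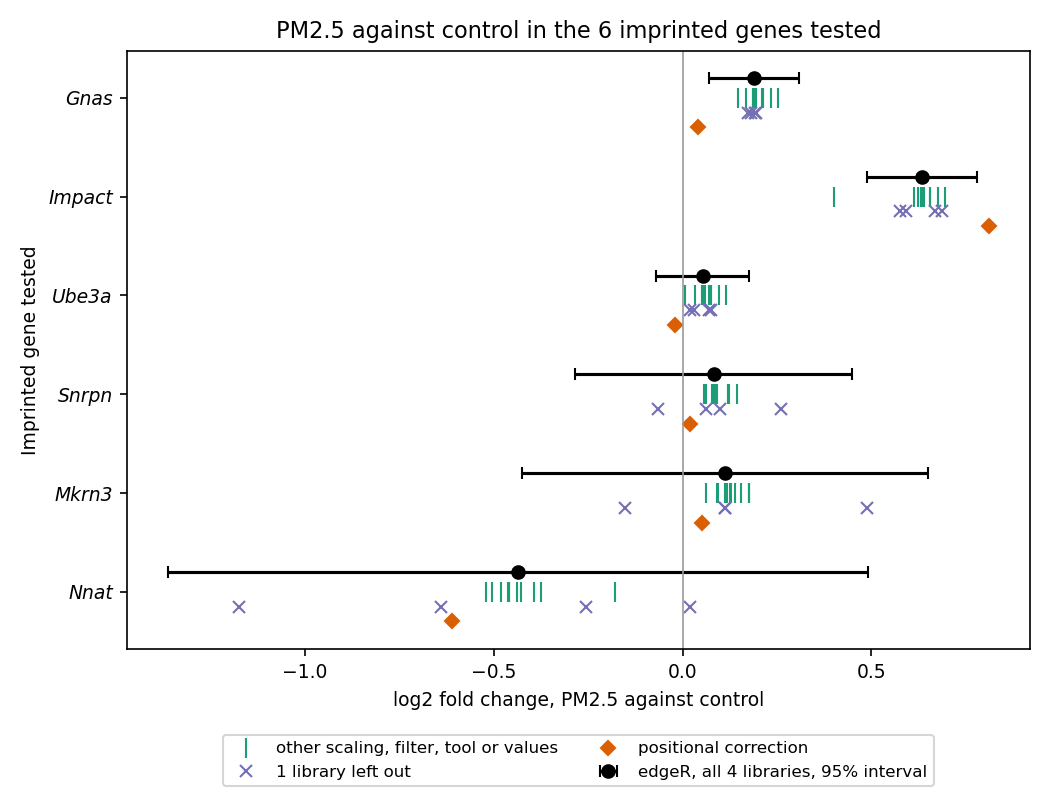
Log2 fold change of PM2.5 over Control for the 6 tested imprinted genes, with 95% intervals from the edgeR fit, and below each the values under other scalings, filters, tools or values (bars), with 1 library left out (crosses) and with the positional correction (diamonds). The interval of Impact runs from 0.49 to 0.78 and that of Gnas from 0.07 to 0.31, and the intervals of Ube3a, Snrpn, Mkrn3 and Nnat cover 0.

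The Prader-Willi and Angelman cluster of chromosome 7 held expressed and silent members side by side. Of its 6 listed genes, Ube3a, Snrpn and Mkrn3 were tested, Snurf had few counts, and Ndn and Magel2 were at 0 in all libraries. None of the 3 tested members passed the test. The 250 bases before the start of Ube3a and Mkrn3, which had counts, and of Ndn, which had none, are shown to set the start of expressed and silent neighbours side by side, together with Phlda2, a silent gene of another cluster on the same chromosome. The sequences are from RefSeq on the GRCm38.p6 build, 5′ to 3′ on the strand of the gene, with CpG dinucleotides, the sites that imprinting methylates, in capitals. Ube3a is at chr7:59228500-59228749 on the plus strand, Mkrn3 at chr7:62420154-62420403 on the minus strand, Ndn at chr7:62348027-62348276 on the plus strand and Phlda2 at chr7:143502525-143502774 on the minus strand.
Ube3a: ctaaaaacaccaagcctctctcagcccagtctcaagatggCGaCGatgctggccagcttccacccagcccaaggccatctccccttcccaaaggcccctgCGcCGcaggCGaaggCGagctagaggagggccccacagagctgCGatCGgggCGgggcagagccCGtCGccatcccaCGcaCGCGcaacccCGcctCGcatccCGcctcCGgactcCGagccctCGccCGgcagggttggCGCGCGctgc
Mkrn3: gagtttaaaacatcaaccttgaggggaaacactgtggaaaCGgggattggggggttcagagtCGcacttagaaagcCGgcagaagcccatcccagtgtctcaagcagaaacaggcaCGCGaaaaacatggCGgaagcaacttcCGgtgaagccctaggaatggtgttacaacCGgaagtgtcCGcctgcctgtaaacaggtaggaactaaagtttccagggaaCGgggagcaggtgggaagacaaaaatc
Ndn: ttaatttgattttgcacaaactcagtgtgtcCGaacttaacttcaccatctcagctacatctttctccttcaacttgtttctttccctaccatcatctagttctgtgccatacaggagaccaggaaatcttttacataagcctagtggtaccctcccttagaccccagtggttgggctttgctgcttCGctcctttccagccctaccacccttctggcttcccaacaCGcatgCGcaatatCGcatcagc
Phlda2: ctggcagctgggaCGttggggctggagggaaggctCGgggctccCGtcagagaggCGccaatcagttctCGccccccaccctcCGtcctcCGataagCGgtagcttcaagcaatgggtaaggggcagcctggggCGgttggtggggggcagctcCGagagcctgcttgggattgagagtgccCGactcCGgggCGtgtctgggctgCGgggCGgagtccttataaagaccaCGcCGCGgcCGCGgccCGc

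These 250 bases held 24 CpG in Ube3a, 10 in Mkrn3, 5 in Ndn and 21 in Phlda2, so of the genes shown the CpG-rich starts belonged to 1 well-expressed and 1 silent gene. RefSeq windows of 300 bases (250 before to 50 after the start) matched 26 of the 32 names, with 39 windows. Cdkn1c, Rtl1, Impact, H19, Sgce and Peg10 were not matched. The median CpG number was 16 in the 11 windows of tested members, 15 in the 13 windows of members with few counts, 13 in the 9 windows of members at 0 and 6 in the 6 windows of members without a row, against 7 over all 32851 windows. The core GCGTG of the aryl hydrocarbon response element, searched on both strands, was present in 19 of the 39 windows (48.7%) and in 32.4% of all windows. The core TGCCGC bound by ZFP57, a protein that protects imprints, was present in 11 (28.2%) against 11.6%. Both of these cores hold a CpG, and the median CpG number was 13 in the 39 windows against 7 over all windows. The background was not matched for CpG number, so the shares do not show that these cores are enriched. The antioxidant response core TGACNNNGC was present in 1 (2.56%) against 12.4%, and the NF-kB core in 20 (51.3%) against 50.8%. Each motif was searched by itself, so matches of different motifs may overlap, and a match describes the letters only. Windows of 1 gene can share bases, as in Gnas and Mest, and so can windows of neighbouring genes, as do those of Peg3 and Usp29. Snurf and Snrpn share 1 window, so its matches count for both.

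Ube3a encodes the ubiquitin ligase whose loss causes Angelman syndrome, and it is read from both copies outside neurons. The gene (ENSMUSG00000025326, chromosome 7, 58878498 to 58961284, plus strand, GRCm39) had 165 and 172 CPM in the controls and 177 and 172 CPM in PM2.5. The PM2.5 libraries lay above the controls, by a gap smaller than the SD within either group (4.74 and 3.56 CPM). The log2 fold change was 0.05, with a 95% interval of -0.07 to 0.18 and an edgeR adjusted p of 0.4811. The Riken clone gene 9330162G02Rik, with 645 counts in all, overlaps it on the other strand, and whether counting used strand is not given in the sources used here.

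Snrpn encodes a splicing protein of the small nuclear ribonucleoproteins, and Snurf is a short reading frame on the same transcript upstream of it. Snrpn (ENSMUSG00000102252, chromosome 7, 59632243 to 59789967, minus strand) had 5.36 and 6.75 CPM in the controls and 6.54 and 6.38 CPM in PM2.5. Both PM2.5 values lay between the controls, and the log2 fold change was 0.08 (95% interval -0.29 to 0.45, edgeR adjusted p = 0.7265). Snurf (ENSMUSG00000102627, 59645197 to 59654797, minus strand) had 13 and 5 counts in the controls and 0 in both PM2.5 libraries. Against a floor of 3 counts over the PM2.5 group, with the control counts taken as exact, it was 5.30-fold lower there. This value was 2.56 without Control replicate 1 and 9.03 without Control replicate 2. Snurf lies inside Snrpn on the same strand, so how the counting shared reads between them is uncertain. Summed over both genes, the level was 6.05 and 6.94 CPM in the controls and 6.54 and 6.38 CPM in PM2.5, again with the PM2.5 libraries between the controls.

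Mkrn3 encodes a ubiquitin ligase known as a brake on the onset of puberty. It (ENSMUSG00000070527, chromosome 7, 62067341 to 62069887, minus strand) had 49 and 104 counts in the controls and 75 and 69 in PM2.5, or 2.58 and 4.03 against 3.64 and 3.64 CPM. The controls differed more from each other than from PM2.5, and the log2 fold change was 0.11 (95% interval -0.42 to 0.65, edgeR adjusted p = 0.7412). Ndn and Magel2, MAGE family genes active in neurons, lie 67.3 and 36 kb from Mkrn3 and had 0 counts in all libraries.

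**Figure D5:**
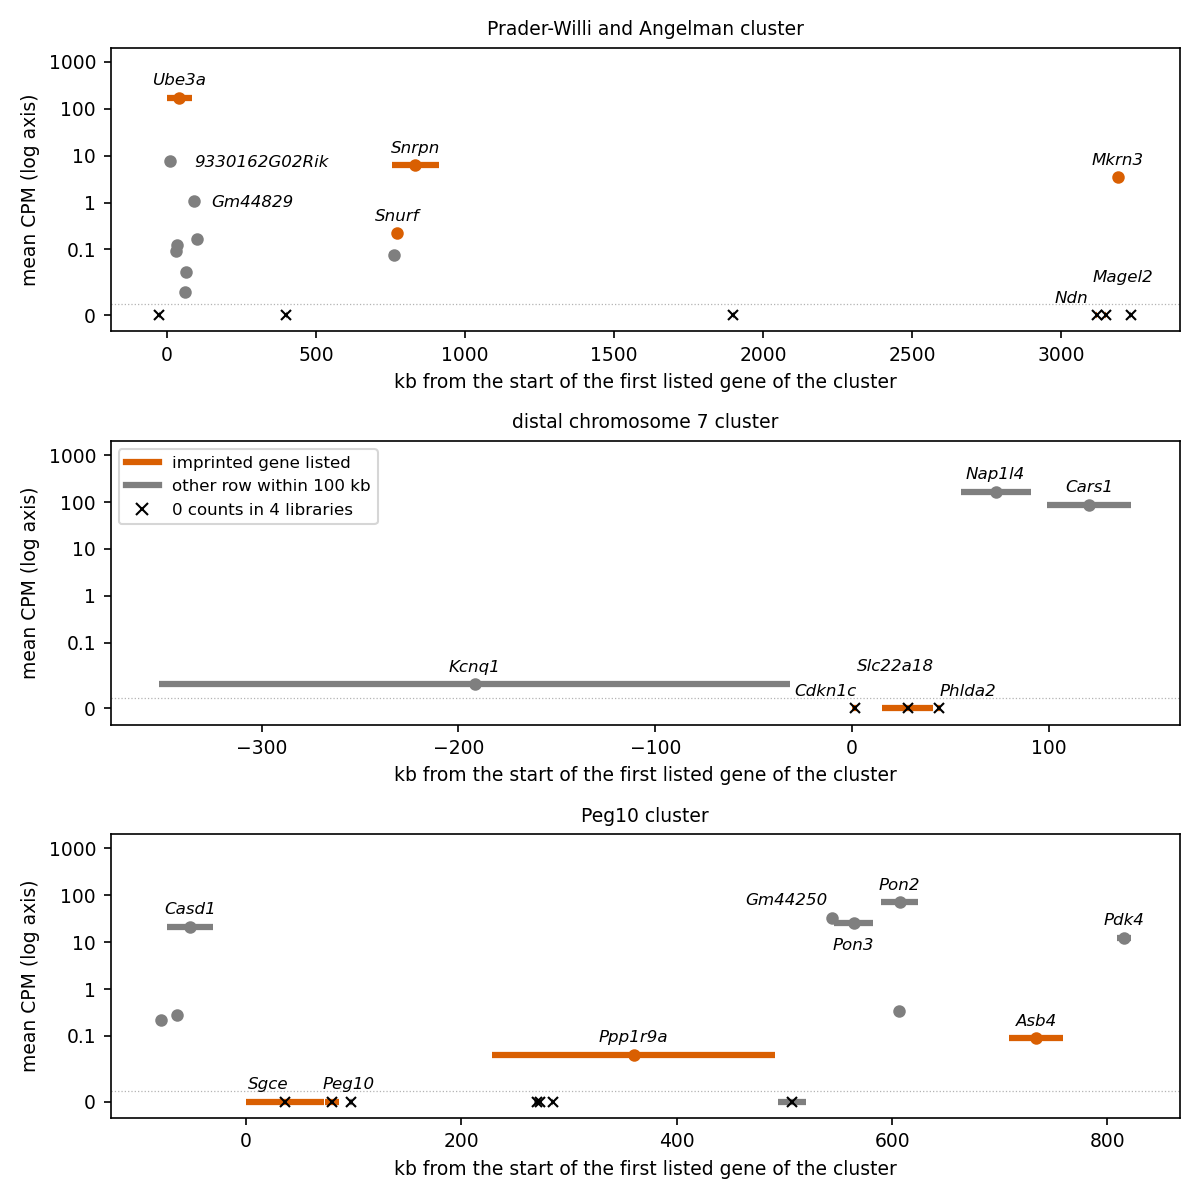
Mean level over 4 libraries (CPM, log axis) of the imprinted genes and of other rows within 100 kb, by distance in kb from the start of the first listed gene, in the Prader-Willi and Angelman, distal chromosome 7 and Peg10 clusters. Crosses mark rows at 0 counts in all libraries, which include Ndn and Magel2 next to Mkrn3, and Phlda2 next to Nap1l4.

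The distal chromosome 7 cluster had 0 counts at the 3 of its 5 listed members that have a row, beside well-expressed neighbours. Cdkn1c, an inhibitor of cyclin-dependent kinases, Slc22a18, a transporter of the organic cation family, and Phlda2, a restraint on placental growth, had 0 counts in every library, which allows up to 0.116 to 0.158 CPM each. Nap1l4, a histone chaperone gene whose nearer end lies 10.4 kb from Phlda2, stood at 169 CPM in the controls and 160 CPM in PM2.5 (log2 fold change -0.09, edgeR adjusted p = 0.2689). A silent and a well-expressed gene thus lay next to each other in all 4 libraries. Kcnq1, a potassium channel gene of the same cluster, had 0 raw counts in 3 libraries and 1 in PM2.5 replicate 2, but 2322 and 3733 total gene reads in the controls and 3344 and 3088 in PM2.5. What those reads hold was not tested, so a raw count of 0 there does not mean that no read fell on the gene. Of the 4 listed growth restraint genes, Grb10, Cdkn1c, Phlda2 and Plagl1, 3 had 0 counts in all libraries and Grb10 had 0 and 4 counts in the controls and 9 and 2 in PM2.5.

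The clusters of Dlk1, Peg3 and Peg10 were likewise at or near 0 at the listed members that have a row, which for Dlk1 are 2 of 5. Dlk1, a transmembrane regulator of differentiation related to the Notch ligands, and Rtl1, a retrotransposon-derived gene needed in the placenta, had 0 counts, as did both other rows within 100 kb. The nearest tested gene, Wdr25, lay 424.4 kb from Dlk1. Zim1 and Peg3, zinc finger genes, and Usp29, a deubiquitinase gene, had 0 counts, and none of the 8 other rows within 100 kb of them was tested. In the Peg10 cluster, Sgce, a sarcoglycan, and Peg10, a second retrotransposon-derived gene of the placenta, had 0 counts beside Casd1, which lies 31 kb from Sgce at 22.2 CPM in the controls and 20.7 CPM in PM2.5. Plagl1, a zinc finger gene of chromosome 10 that restrains growth, also had 0 counts, 46.4 kb from Ltv1 at 62.1 and 45.6 CPM. Over the 13 members at 0, the distance to the nearest tested gene ran from 10.4 to 561.2 kb with a median of 67.3 kb, and 7 had a tested gene within 100 kb.

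Ppp1r9a and Asb4, at the far end of the Peg10 cluster, were barely detected. Ppp1r9a, an actin-binding scaffold, had 3 counts in Control replicate 1 and 0 in the other libraries. Asb4, part of a ubiquitin ligase, had 0 counts in both controls and 3 and 4 in PM2.5. Against a floor of 3 counts over the control group, Asb4 was 2.64-fold higher in PM2.5, from 7 counts in all, taken as exact. Without a filter it did not pass the test (edgeR adjusted p = 0.08451). Its neighbour Pdk4, a kinase that turns down pyruvate oxidation and is itself listed among other imprinted genes, lies 50.3 kb away and rose from 8.78 and 7.45 to 16.8 and 16.4 CPM (log2 fold change 1.04, SE 0.12, edgeR adjusted p = 0.0001239).

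Nnat, Nap1l5 and Mest share their place with another gene, and all were low. Nnat, a small membrane protein of the endoplasmic reticulum best known from brain, lies inside Blcap on the opposite strand (ENSMUSG00000067786, chromosome 2, 157401998 to 157404442, plus strand). It had 26 and 27 counts in the controls and 25 and 10 in PM2.5, or 1.37 and 1.05 against 1.21 and 0.527 CPM. PM2.5 replicate 2 was the low library and the other PM2.5 library lay between the controls, so the groups overlapped. The log2 fold change was -0.44, with a 95% interval of -1.36 to 0.49 and an edgeR adjusted p of 0.4384, and it ran from -1.17 to 0.02 as each library was left out in turn. Its host Blcap stood at 54.6 CPM in the controls and 61.9 CPM in PM2.5 (log2 fold change 0.18, edgeR adjusted p = 0.05419).

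Nap1l5, a nucleosome assembly protein gene without introns, lies inside Herc3 and had 3 and 4 counts in the controls and 1 and 0 in PM2.5. Herc3 was at 18.3 and 17.2 CPM (edgeR adjusted p = 0.5197). Mest, a mesoderm-specific hydrolase, had 3 and 8 counts in the controls and 4 and 5 in PM2.5, while its total gene reads were 18 and 45 against 30 and 40. The raw count was thus 12.5% to 17.8% of the total gene reads of Mest. Copg2, a coat protein of transport vesicles, overlaps Mest on the other strand and rose from 45.3 and 47.9 to 55.7 and 56 CPM (log2 fold change 0.26, SE 0.07, edgeR adjusted p = 0.01168). That call ended without PM2.5 replicate 2 (adjusted p = 0.0621).

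Of the members left, Grb10 is an adaptor that dampens insulin receptor signalling and Zdbf2 a zinc finger gene. Zdbf2 had 3 counts in Control replicate 1 and 0 in the other libraries. At these counts no difference could be detected for Grb10, Zdbf2, Ppp1r9a, Mest or Nap1l5. By parental origin, as textbooks give it, 9 of the 17 paternally expressed members with a row had 0 counts, 4 were tested and 1 rose. Of the 9 maternally expressed members with a row, 4 had 0 counts, 2 were tested and 1 rose. The latter was Gnas, which was not called relative to its neighbours (edgeR adjusted p = 0.589). Over all rows, 29.3% had 0 counts, and 19.2% of all tested genes were higher.

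Other imprinted genes, from a list of 52 names imprinted in some tissue or stage, included genes that rose and genes that fell. Of the 46 with a row, 9 (19.6%) had 0 counts and 23 (50%) were tested, and 9 of these were higher and 3 lower in PM2.5, with a median log2 fold change of 0.16 against 0.01 over all tested genes, of which 19.2% were higher and 20.4% lower. Dcn, a small proteoglycan of the matrix, had 44.1 and 83.7 CPM in the controls and 221 and 281 CPM in PM2.5. The controls differed widely from each other, yet both lay below PM2.5, and the log2 fold change was 1.96 (SE 0.22, edgeR adjusted p = 7.917e-05). Tspan32, a tetraspanin of blood cells, had 7 and 8 counts in the controls and 70 and 45 in PM2.5 (log2 fold change 3.09, SE 0.38, edgeR adjusted p = 0.0001494). Its total gene reads were 58 and 94 in the controls against 250 and 215 in PM2.5, a smaller relative rise, so most of its reads lay outside the raw count. Among the genes that fell, Commd1, a regulator of copper handling and NF-kB, went from 54.5 and 56.2 to 42.2 and 40.2 CPM (log2 fold change -0.43, SE 0.07, edgeR adjusted p = 0.0008153). Relative to its 100 neighbours the value was -0.19, with an adjusted p of 0.05188. Tssc4, a splicing factor from the distal chromosome 7 domain, went from 24.3 and 26.5 to 17.5 and 18.8 CPM (log2 fold change -0.49, SE 0.09, edgeR adjusted p = 0.002311). Igf2, a fetal growth factor named after its values were seen, had 0 counts in both controls and 6 in each PM2.5 library. With these counts taken as exact, it was 4.53-fold higher against a floor of 3 counts over the control group.

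Genes of imprint maintenance and DNA methylation, a list of 32 names, were mostly expressed. The list also holds enzymes that oxidise methylcytosine and other chromatin proteins, so not all of its genes keep imprints. Of the 32, 28 were tested: 2 were higher, 8 were lower and 18 did not pass the test, with a median log2 fold change of -0.09. The 10 calls in 28 lie near the 39.6% called over all tested genes. Dnmt1, the methyltransferase that copies methylation after replication, stood at 424 and 388 CPM in the controls and 412 and 417 CPM in PM2.5, with overlapping groups (log2 fold change 0.03, edgeR adjusted p = 0.7194). Its partner Uhrf1 fell from 318 and 305 to 252 and 257 CPM (log2 fold change -0.29, SE 0.05, edgeR adjusted p = 0.001988). Zfp57 and Trim28, which hold methylation at imprinted control regions, had log2 fold changes of 0.06 and -0.09 and did not pass the test. Tet2, an enzyme that oxidises methylcytosine, rose from 15.5 and 16 to 26.9 and 28.1 CPM (log2 fold change 0.80, SE 0.09, edgeR adjusted p = 8.558e-05). The chromatin proteins Cbx1 and Daxx fell (log2 fold changes -0.33 and -0.41). Relative to their neighbours, Uhrf1 and Cbx1 no longer passed the test (-0.13 and -0.17, adjusted p = 0.08586 and 0.05974). With this correction 3 of the 28 were higher and 3 lower, against 2009 higher and 1944 lower of all 12478 genes tested.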

How the data were processed

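PolyA RNA of 4 libraries was made into sequencing libraries from 750 ng of total RNA with a stranded kit, per the labels' protocols. Raw counts per gene, total gene reads per gene and RPKM values were deposited by the authors, per the file headers, and positions are on GRCm39, per the submitters' processing notes. No source used here gives the aligner, the counter or the use of strand, so reads of overlapping, antisense or near-identical genes may not be separated. Samples were grouped by their titles.

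The raw counts as deposited were tested with edgeR 4.0.16 (R 4.3.3): filterByExpr (minimum count 10), TMM factors of 0.973, 0.984, 1.02 and 1.024, an unpaired quasi-likelihood F test over all 12478 genes kept, and Benjamini-Hochberg adjustment. SE is the size of the log2 fold change divided by the root of the F statistic, and 95% intervals use the t distribution of the fit. RPKM was used only to compare levels between genes and in limma alternatives. An exact permutation test of 2 against 2 libraries cannot go below p = 0.333 (two-sided) and was not used. Binomial intervals and floors cover counting error only.

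All 32 names were reported. From the lists of other imprinted genes and of imprint maintenance genes, the 5 called genes with the smallest p and no overlap between groups were named, with genes overlapping a member. A gene that this rule took is not reported here. The members and lists were chosen with earlier results of these data known. On simulated data of 12339 genes for PM2.5 against Control, 49 or 50 genes were changed at each fold. Of these edgeR recovered 36.7% at 1.25-fold, 79.6% at 1.5-fold, 88% at 2-fold and 98% at 4-fold. Among 166 calls 17 were false, a share above the 0.05 threshold. Far fewer genes were changed there than the 39.6% called in these data, so recovery may differ.

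Alternatives were median-ratio, upper quartile and library size scaling, testing without a filter or with 1 asking for 1 CPM in 2 libraries and 50 counts in sum, DESeq2 1.42.0, limma-voom and limma-trend (limma 3.58.1) on log2(RPKM + 0.1) and log2(RPKM + 1), a replicate block, each library left out, total gene reads, and a positional correction. The last uses as offset the median log2 fold change of the 50 nearest tested genes on each side. A test on the reads outside the raw count was added after the data were seen. Promoter windows and gene starts were taken from RefSeq.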

Additional observations from a re-analysis of the deposited data

How the results depend on the processing

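Of the 6 tested members, Impact was called higher under all 17 alternatives planned, with log2 fold changes from 0.40 (total gene reads) to 0.81 (positional correction), and Gnas under 13. The number of members higher was 1 to 2 with each library left out, 1 with the positional correction and 1 on total gene reads. Lower members numbered 1, Snurf, without a filter in edgeR and in limma-trend on log2(RPKM + 0.1). On the reads outside the raw count alone, scaled by TMM to the totals of such reads, the log2 fold change of Impact was -0.058 (edgeR adjusted p = 0.7028), and scaled to the raw count libraries the same reads were slightly higher in PM2.5 (48.5 and 52.3 against 56.6 and 52.4 CPM). Ube3a, Snrpn, Mkrn3 and Nnat were called under none of the 17.

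Over all genes, leaving out each library gave 1516 to 2299 higher and 1680 to 2578 lower, with the lone library of a group assumed to vary like the other group; both lowest counts were without PM2.5 replicate 2. DESeq2 called 1581 higher, and limma-trend on log2(RPKM + 0.1) without a filter 1584 lower. The share of calls that were higher was 48.5%, and 62.1% with library size only, which moved the median log2 fold change of all genes to 0.07. Deviations of libraries with the same replicate number correlated at 0.164 over 12478 genes, with 2 numbers, which share nothing else in the labels. With the replicate block 2797 genes were higher and 2976 lower, and the block changed no call among the 6 tested members. For members under 20 counts in all, depth limits the comparison.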
